A study of Mus musculus with 37 samples.

Results

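The 34 genes described here encode enzymes and regulators of cholesterol and fatty acid synthesis. They were chosen by name from 52636 genes in the count tables, by a rule that uses no measured value. Earlier results of these data were known when the list was chosen. Each matched 1 identifier by symbol, had counts, and passed the filter on low counts that left 18426 genes for testing. Of the 34, 23 belong to sterol synthesis. They are Acat2, Hmgcs1, Mvk, Pmvk, Idi1, Fdps and Ggps1 (mevalonate and prenyl steps), Fdft1, Sqle, Lss, Cyp51, Tm7sf2, Lbr, Msmo1, Nsdhl, Hsd17b7, Ebp, Sc5d and Dhcr7 (squalene and sterol ring steps), and Srebf2, Scap, Insig1 and Stard4 (regulation and transport). The other 11 belong to fatty acid synthesis: Srebf1 (regulator), Acly, Acss2 and Me1 (acetyl-CoA and NADPH supply), Acaca, Fasn and Elovl6 (chain building), and Scd1, Scd2, Fads1 and Fads2 (desaturation).

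The study sequenced RNA from mature luminal cells, the hormone-sensing epithelial cells of the mammary gland, sorted by flow cytometry from mice raised to 8 weeks of age. The 12 groups share the removal of the ovaries. Each animal carried wild-type (WT), D542G or Y541S estrogen receptor alpha (Esr1), and received pellets of placebo, estradiol (E2), progesterone (P4) or both (E2+P4) for 8 days. Each group held 3 libraries except WT P4, which held 4, giving 37 in all. Both changes lie in the ligand-binding domain of the receptor and are mouse counterparts of activating changes known from human breast cancer. Zygosity, and whether a library pooled animals, are not given in the sources used here, so the p-values measure the spread between these libraries. The comparisons ask how each hormone moved these genes within a genotype, and whether the mutants differed from WT with placebo or in their response.

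Cholesterol is built from acetyl-CoA through mevalonate and squalene to the sterol ring. Fatty acids are built from the same acetyl-CoA by a carboxylase and a synthase, then elongated and desaturated. The SREBP transcription factors, encoded by Srebf1 and Srebf2, drive both sets of genes. When sterol is low, the escort protein SCAP carries them from the endoplasmic reticulum to the Golgi, where they are cleaved into active form, and when sterol is high, INSIG proteins hold them back. SREBP-1c is known chiefly for fatty acid genes and SREBP-2 for sterol genes. In the mammary gland, lipid synthesis is best known from the alveolar cells that make milk fat.

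Promoter windows of 4 members are shown because these genes moved in different ways below and because SREBPs are known to act beside NF-Y, which binds CCAAT. The sequences are the 250 bases upstream of the RefSeq gene start (GRCm38.p6), written 5′ to 3′ on the gene's strand. Capitals mark TCACNCCAC (an SREBP site of sterol promoters), CCAAT, and CACGTG (an E-box), on either strand, so that a CCAAT on the other strand reads ATTGG. Hmgcs1 is at chr13:119690101-119690350 (+), Ebp at chrX:8193513-8193762 (-), Sc5d at chr9:42264301-42264550 (-) and Fasn at chr11:120824548-120824797 (-). None of the 4 windows overlaps an exon of the GENCODE M21 annotation.
Hmgcs1: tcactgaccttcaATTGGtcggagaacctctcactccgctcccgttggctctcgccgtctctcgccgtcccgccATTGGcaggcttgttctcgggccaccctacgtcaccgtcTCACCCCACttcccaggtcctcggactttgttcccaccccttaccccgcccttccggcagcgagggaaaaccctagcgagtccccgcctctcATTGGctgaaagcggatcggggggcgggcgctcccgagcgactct
Ebp: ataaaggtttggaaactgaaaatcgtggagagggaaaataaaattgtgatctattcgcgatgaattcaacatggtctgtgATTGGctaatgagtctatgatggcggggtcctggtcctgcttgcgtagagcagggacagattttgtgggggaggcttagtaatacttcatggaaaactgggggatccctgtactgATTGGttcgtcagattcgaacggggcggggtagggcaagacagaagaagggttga
Sc5d: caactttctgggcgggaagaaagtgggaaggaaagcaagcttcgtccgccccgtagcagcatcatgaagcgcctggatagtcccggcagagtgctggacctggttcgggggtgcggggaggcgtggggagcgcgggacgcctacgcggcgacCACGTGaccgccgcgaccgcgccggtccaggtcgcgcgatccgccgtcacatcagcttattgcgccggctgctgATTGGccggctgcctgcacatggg
Fasn: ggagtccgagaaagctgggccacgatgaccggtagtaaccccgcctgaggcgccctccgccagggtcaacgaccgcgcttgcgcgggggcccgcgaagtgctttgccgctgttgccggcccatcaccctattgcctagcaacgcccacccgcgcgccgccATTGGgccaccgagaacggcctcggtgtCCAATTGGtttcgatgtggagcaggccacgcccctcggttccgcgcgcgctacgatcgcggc
Counting upstream from the gene start, Hmgcs1 held the SREBP site at 137 to 129 bases and CCAAT at 237 to 233, 176 to 172 and 45 to 41 bases. Ebp held CCAAT at 170 to 166 and 55 to 51 bases. Sc5d held the E-box at 98 to 93 and CCAAT at 24 to 20 bases. Fasn held CCAAT at 90 to 86, 62 to 58 and 59 to 55 bases, the last pair overlapping on opposite strands.

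RefSeq windows were at hand for 27 of the 34 members, and those of Fads1, Fdft1, Fdps, Scd1, Scd2, Sqle and Stard4 were not analysed here. Over the 250 upstream bases, CCAAT stood in 17 of 23 sterol windows (73.9%) and 5 of 11 fatty acid windows (45.5%), beside 33.8% of all 32851 windows. Those windows belonged to 17 of 19 sterol genes and 4 of 8 fatty acid genes (Acss2, Fasn, Me1 and Srebf1), since some genes have several. The GC box GGGCGG stood in 18 of 23 sterol windows (78.3%) and 6 of 11 fatty acid windows (54.5%), beside 32.7% of all windows. The E-box CACGTG stood in 5 of 23 sterol windows (21.7%), those of Dhcr7, Hsd17b7, Insig1, Sc5d and Scap, and in none of the 11 fatty acid windows, beside 6.02% of all windows. TCACNCCAC stood in 1 of 23 sterol windows (4.35%), that of Hmgcs1, and in no fatty acid window, beside 1.05% of all windows. All 4 motifs were searched on both strands. These are matches of letters, not measured binding.

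Library depth ran from 25694701 to 52244504 counts over genes, with a median of 41260533. Levels below are counts-per-million (CPM) on library sizes scaled by edgeR, given per library in the order of the sample numbers or as mean ± SD (n = 3 libraries, 4 in WT P4), and they compare one gene between groups, not genes with each other. The sorted cells carried the luminal keratins in every library, with Krt8 between 839 and 3260 CPM and Krt18 between 3580 and 10000 CPM. Of the defining adipocyte markers, Adipoq was at most 1.11 and Plin1 at most 1.93 CPM, while Fabp4, which other cells also express, ranged from 5.51 to 218 CPM. The 9 mature luminal markers as a list were not constant. Their mean log2 CPM was 9.47 to 10.06 in WT placebo, 9.68 to 9.81 in WT P4, 6.89 to 7.81 in WT E2 and 8.28 to 9.33 in WT E2+P4, 9.40 to 9.52 in D542G placebo, 7.86 to 8.85 in Y541S placebo, and 7.43 to 7.70 in Y541S E2+P4. Esr1 itself ranged from 9.73 to 831 CPM and Cited1 from 20.8 to 1920.0 CPM.

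In 6 libraries, the mean of a marker list lay more than 2 log2 units from every other library of the group. WT placebo 2 and WT P4 2 had means of 8 mitosis genes of 4.79 and 4.40, against at most 0.68 and 0.84 in their groups, and of 8 basal markers of 5.44 and 4.93, against at most 2.55 and 2.82. D542G placebo 2 was low in both, at 1.03 for mitosis against 3.12 and 3.93, and 1.96 for basal markers against 3.97 and 4.24. D542G P4 2 and WT E2+P4 2 were high in 6 fibroblast markers, at 4.90 against 2.56 and 1.98, and 4.96 against 1.54 and 2.01. D542G P4 2 also stood at 2.26 for leukocyte markers, against 0.29 and 0.37. Y541S placebo 5 had a mean of 9 luminal progenitor and alveolar markers of 5.82, against 3.03 and 2.77. In such bulk libraries, fewer cells of a type and less RNA per cell cannot be told apart.

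Each fold change below comes from 1 fit to all 37 libraries, and a gene is said to have risen or fallen when its adjusted p was under 0.05 (edgeR quasi-likelihood test, Benjamini-Hochberg over 18426 genes). The comparisons of 1 genotype share their placebo libraries. Tests of the D542G and Y541S responses to a hormone against that of WT share the WT libraries, so they are not independent. In WT cells, E2 raised 2 and lowered 5 of the 23 sterol genes and raised 4 and lowered 3 of the 11 fatty acid genes, while 15.6% of all tested genes rose and 15.9% fell. WT P4 raised 2 sterol genes and lowered none (background 0.923% and 0.505%), and no fatty acid gene passed (1 at an unadjusted p under 0.05, and 0 by DESeq2). WT E2+P4 raised 2 and lowered 3 sterol genes and raised 4 and lowered 1 fatty acid genes (background 11.8% and 11.5%). Set directly against WT E2, WT E2+P4 had 2 sterol genes higher and none lower and 3 fatty acid genes in each direction (background 10.2% and 8.28%). Against WT P4 it had 2 sterol genes higher and 6 lower, and 5 fatty acid genes higher and none lower (background 12% and 11.1%).

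In D542G cells, E2 raised 2 and lowered 4 sterol genes and raised 1 and lowered 3 fatty acid genes (background 8.36% and 7.34%). D542G P4 raised no sterol gene and lowered 4, and raised 3 and lowered 2 fatty acid genes (background 9.49% and 8.88%). D542G E2+P4 raised 1 and lowered 4 sterol genes and raised 5 and lowered 2 fatty acid genes (background 13% and 12.4%). In Y541S cells, E2 lowered 1 sterol gene and no fatty acid gene passed (3 at an unadjusted p under 0.05, and 0 by DESeq2), with a background of 1.87% and 2.78%. Y541S P4 raised 1 and lowered 3 sterol genes and raised 1 and lowered 1 fatty acid genes (background 5.14% and 6.13%). Y541S E2+P4 raised 4 and lowered 1 sterol genes and raised 1 and lowered 1 fatty acid genes (background 8.43% and 10.1%).

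The share of the sterol list that passed was above that of all genes with WT P4 (8.7% beside 1.43%), D542G E2 (26.1% beside 15.7%), Y541S P4 (17.4% beside 11.3%) and Y541S E2+P4 (21.7% beside 18.5%). It was below it with WT E2 (30.4% beside 31.5%), WT E2+P4 (21.7% beside 23.4%), D542G P4 (17.4% beside 18.4%), D542G E2+P4 (21.7% beside 25.4%) and Y541S E2 (4.35% beside 4.65%). For the fatty acid list and the same shares of all genes, it was higher with WT E2 (63.6%), WT E2+P4 (45.5%), D542G E2 (36.4%), D542G P4 (45.5%), D542G E2+P4 (63.6%) and Y541S P4 (18.2%). It was 0 with WT P4 and Y541S E2, and 18.2% with Y541S E2+P4. A single gene is 4.35% of the sterol list and 9.09% of the fatty acid list, and these shares were not compared by test. The median log2 fold change of the sterol list lay between -0.26 (D542G P4) and 0.36 (Y541S E2+P4) over the 9 hormone comparisons, and that of all genes between -0.04 and 0.06. The fatty acid list had medians from -0.68 (D542G E2) to 0.71 (WT E2+P4). Mvk, Idi1, Lbr, Hsd17b7, Insig1, Stard4 and Elovl6 passed in none of the 9 comparisons. Cyp51, Msmo1, Me1, Scd2 and Fads1 passed in both directions, depending on hormone and genotype.

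**Figure D1:**
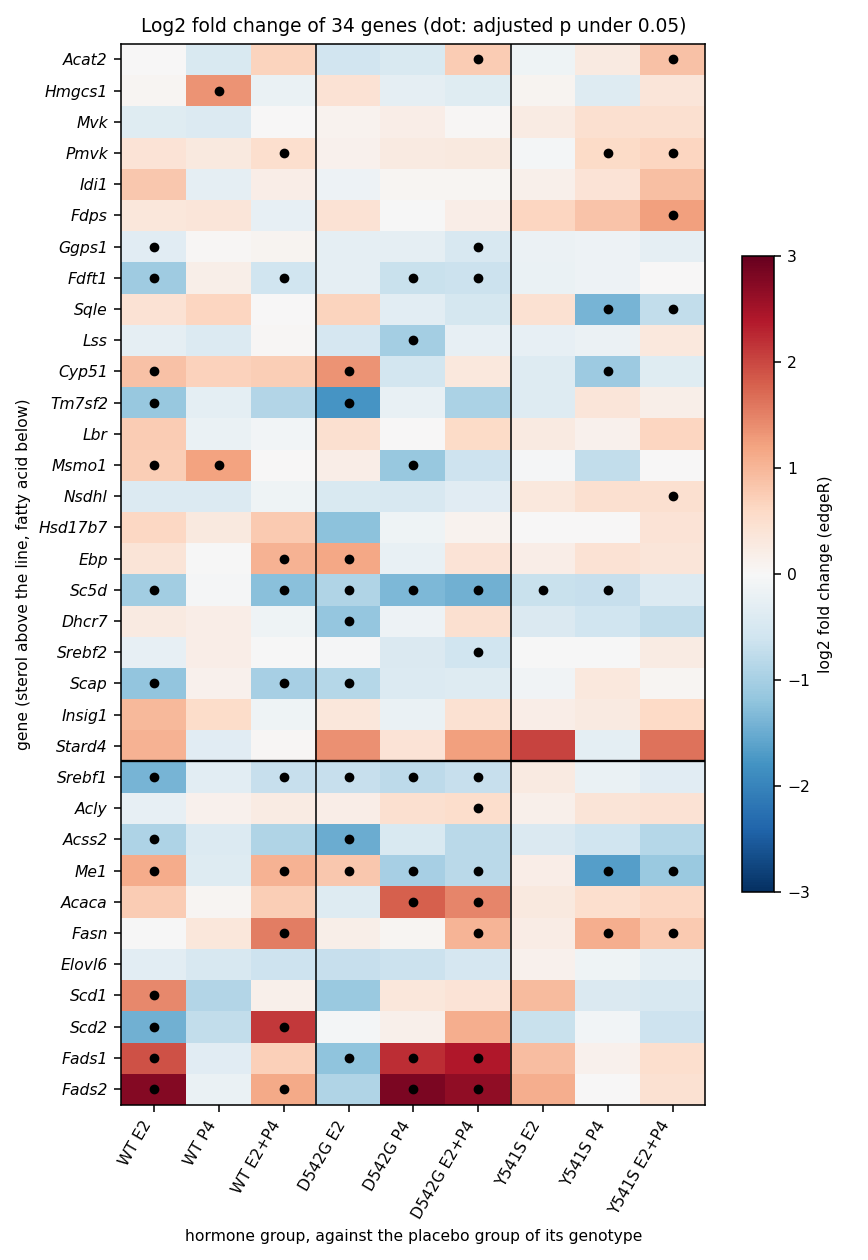
Log2 fold change of the 34 genes (rows, sterol genes above fatty acid genes) in the 9 comparisons of hormone with placebo (columns), as colour, with a dot where the adjusted p was under 0.05. Sc5d is marked lower in 7 of the 9 columns, and the rows of Fads1 and Fads2 change colour between WT E2 and D542G E2.

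Among the mevalonate genes, Hmgcs1 stood out in WT P4. It encodes the cytosolic HMG-CoA synthase, the entry step of the pathway, and lies at chr13:119690379-119708260 (+, GRCm38). In WT placebo its libraries held 22.1, 49.7 and 26.6 CPM and in WT P4 128, 82.5, 49.6 and 73.4 CPM. Hmgcs1 rose by 1.35 ± 0.28 on the log2 scale (standard error, adjusted p = 0.0152), with the lowest P4 library level with the highest placebo library. The call was lost without WT placebo 1 (1.13, adjusted p = 0.138) or 3 (1.22, adjusted p = 0.113) and in a fit of the compared groups alone (adjusted p = 0.112). WT P4 4 and 5, the latter pair of values, carry sample identifiers of a second series, as does Y541S placebo 5, and whether these mark a batch is not given in the sources used here. Without those 3 libraries the rise of Hmgcs1 was 1.69 (adjusted p = 0.00219). That fit kept only WT P4 2 and 3, and WT P4 2 is the library with the high mitosis and basal markers given above. With E2 added to P4, Hmgcs1 was at 33.4, 25.4 and 26.8 CPM, below every P4 library, a difference of -1.55 ± 0.28 (adjusted p = 0.000154).

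In neither mutant did Hmgcs1 pass with P4. D542G P4 held 31.5, 30.7 and 25.0 CPM against 38.2, 24.6 and 42.0 with placebo (log2 fold change -0.26 ± 0.29, adjusted p = 0.559). Y541S P4 held 31.8, 29.5 and 30.0 CPM against 27.8, 38.4 and 53.2 (-0.39 ± 0.29, adjusted p = 0.44). Both mutants' P4 libraries lay within the range of the WT placebo libraries. The P4 response of Hmgcs1 itself differed from that of WT by -1.61 ± 0.40 in D542G (adjusted p = 0.0242) and by -1.73 ± 0.40 in Y541S (adjusted p = 0.00846). Both differences use the same WT libraries. The D542G difference was lost without WT placebo 1 (-1.40, adjusted p = 0.0686) or 3 (-1.48, 0.0662), D542G placebo 3 (-1.46, 0.0721) or D542G P4 2 (-1.65, 0.0583). The Y541S difference was lost when the 4 groups were fitted alone (adjusted p = 0.0557). A predicted gene overlaps 34.6% of the Hmgcs1 span and 46.6% of its exon bases. Reads from the pair could not be told apart if strand was not used in counting.

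Acat2, the acetoacetyl-CoA thiolase that precedes HMG-CoA synthase, was high wherever E2 and P4 were combined. It stood at 45.2 ± 6.45 CPM in WT E2+P4, 44.6 ± 1.48 in D542G E2+P4 and 40.8 ± 2.63 in Y541S E2+P4, against 28.6 ± 10, 26.1 ± 10.7 and 22.3 ± 4.95 with placebo. Acat2 rose in D542G (0.77 ± 0.25, adjusted p = 0.0212) and Y541S (0.87 ± 0.25, adjusted p = 0.0138) and against WT P4 (1.13 ± 0.23, adjusted p = 0.000526). Against WT placebo it did not pass, where the library WT placebo 2 held 40.1 CPM and the other two 22.0 and 23.6. Without WT placebo 2 and WT P4 2 it passed there as well (0.98, adjusted p = 0.00604). The D542G call was lost without D542G placebo 1 (0.66, adjusted p = 0.1) or 2 (0.56, 0.15) or D542G E2+P4 2 (0.75, 0.0573) or 3 (0.77, 0.0509), and the Y541S call without Y541S placebo 2 (0.77, 0.0717).

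Pmvk, the phosphomevalonate kinase, showed smaller steps. It stood at 17.1 ± 2.35 CPM in WT placebo and 24.1 ± 1.14 in WT E2+P4, and at 21.6 ± 2.53 in Y541S placebo, 32.1 ± 2.78 in Y541S P4 and 33.8 ± 2.31 in Y541S E2+P4. It rose in these 3 comparisons by 0.50 (adjusted p = 0.0467), 0.57 (0.0419) and 0.64 (0.0138), with no overlap between groups. The first was lost without any 1 of its 6 libraries (0.39 to 0.57, adjusted p = 0.0533 to 0.207), and the second without any 1 of 5 of its 6, Y541S placebo 5 excepted (0.48 to 0.63, adjusted p = 0.0687 to 0.17). The third was lost without Y541S placebo 2 (0.55, adjusted p = 0.0781) or Y541S E2+P4 3 (0.59, 0.0612).

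Ggps1, which makes geranylgeranyl diphosphate for protein prenylation, held a narrow range of 38.2 to 64.0 CPM over all libraries. In D542G it fell from 60.8, 63.4 and 61.7 CPM with placebo to 46.9, 47.9 and 39.4 with E2+P4, with no overlap (-0.47 ± 0.11, adjusted p = 0.00305). In WT E2 it fell to 42.9 ± 2.72 CPM from 54.5 ± 5.18 (-0.35 ± 0.11, adjusted p = 0.0221), a call lost without WT placebo 1 (-0.27, 0.123) or WT E2 2 (-0.31, 0.0774) or 3 (-0.33, 0.0627). That call was also lost when the 2 groups were fitted alone (-0.38, adjusted p = 0.132) and without the filter on low counts (-0.34, 0.0636). It was lost without WT placebo 2 and WT P4 2 as well (-0.35, 0.05). Mvk (mevalonate kinase), at 6.81 to 24.4 CPM, passed in no hormone comparison. Idi1 and Fdps, the isopentenyl diphosphate isomerase and the farnesyl diphosphate synthase, had only 1607 and 1680 counts over all libraries. Other genes overlap 89.7% of the Fdps span and 79.6% of its exon bases, so these low values may not show its full level. Fdps rose in Y541S E2+P4 from 0.588, 0.787 and 0.575 to 0.998, 1.3 and 2.28 CPM (1.23 ± 0.40, adjusted p = 0.0312). That call was lost without Y541S E2+P4 3 (0.82, adjusted p = 0.225), Y541S placebo 2 (1.16, 0.103) or Y541S placebo 5 (1.15, 0.0814).

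Among the squalene and ring genes, Sc5d fell most widely. It encodes lathosterol oxidase, a late step of ring synthesis, and lies at chr9:42251595-42264256 (-). WT placebo held 180.0, 163 and 194 CPM, WT P4 170.0, 170.0, 189 and 174, WT E2 95.6, 74.9 and 90.1, and WT E2+P4 72.7, 75.7 and 77.6. The libraries with E2 all lay below those without it. Sc5d fell by 1.04 ± 0.15 on the log2 scale with WT E2 (adjusted p = 7.39e-06) and by 1.25 ± 0.15 with WT E2+P4 (adjusted p = 6.67e-07), while with WT P4 it did not pass.

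In D542G cells Sc5d was lower with each hormone. Placebo held 165, 184 and 200 CPM, E2 88.7, 103 and 101, P4 87.5, 52.6 and 74.5, and E2+P4 69.7, 68.0 and 63.6. No hormone library reached the placebo range, and Sc5d fell by 0.91 (adjusted p = 0.000118), 1.35 (adjusted p = 5.2e-06) and 1.45 (adjusted p = 1.34e-07). The P4 response differed from that in WT by -1.33 ± 0.21 (adjusted p = 0.00128), a difference kept in each alternative fit. In Y541S cells the gene was low already with placebo, at 106, 91.5 and 60.5 CPM, 1.06 ± 0.15 below WT placebo on the log2 scale (adjusted p = 1.97e-05). It fell further to 58.2, 53.6 and 51.8 CPM with E2 (-0.66 ± 0.15, adjusted p = 0.0105) and to 57.4, 52.8 and 51.3 with P4 (-0.68 ± 0.15, adjusted p = 0.00406).
With E2+P4 it held 60.6, 62.2 and 72.1 CPM and did not pass, while without Y541S placebo 5 it fell (-0.60, adjusted p = 0.00286). The Y541S E2 call was lost without Y541S placebo 2 (-0.48, 0.125) or 3 (-0.61, 0.0648) or Y541S E2 3 (-0.62, 0.0662), and the Y541S P4 call without Y541S placebo 2 (-0.50, 0.0516).

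Ebp, the sterol isomerase that acts before Sc5d, moved the other way in some of these groups. It lies at chrX:8185329-8193512 (-). WT placebo held 121, 105 and 114 CPM and WT E2+P4 209, 209 and 277, a rise of 1.04 ± 0.16 on the log2 scale (adjusted p = 2.23e-05). D542G placebo held 117, 119 and 125 CPM and D542G E2 257, 270.0 and 273, a rise of 1.15 ± 0.16 (adjusted p = 1.23e-05). Neither pair of groups overlapped, and both calls were kept in each alternative. In WT E2 the libraries spread over 106, 177 and 161 CPM and the gene did not pass, and the E2 response of D542G exceeded that of WT by 0.76 ± 0.23 (adjusted p = 0.0334). That difference was fragile, and leaving out any 1 of 9 of the 12 libraries in it gave 0.57 to 0.79 with adjusted p = 0.0501 to 0.0975. In WT E2+P4 and D542G E2, Ebp rose while Sc5d fell, and in D542G P4, where Sc5d fell, Ebp held 103, 104 and 103 CPM and did not pass.

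**Figure D2:**
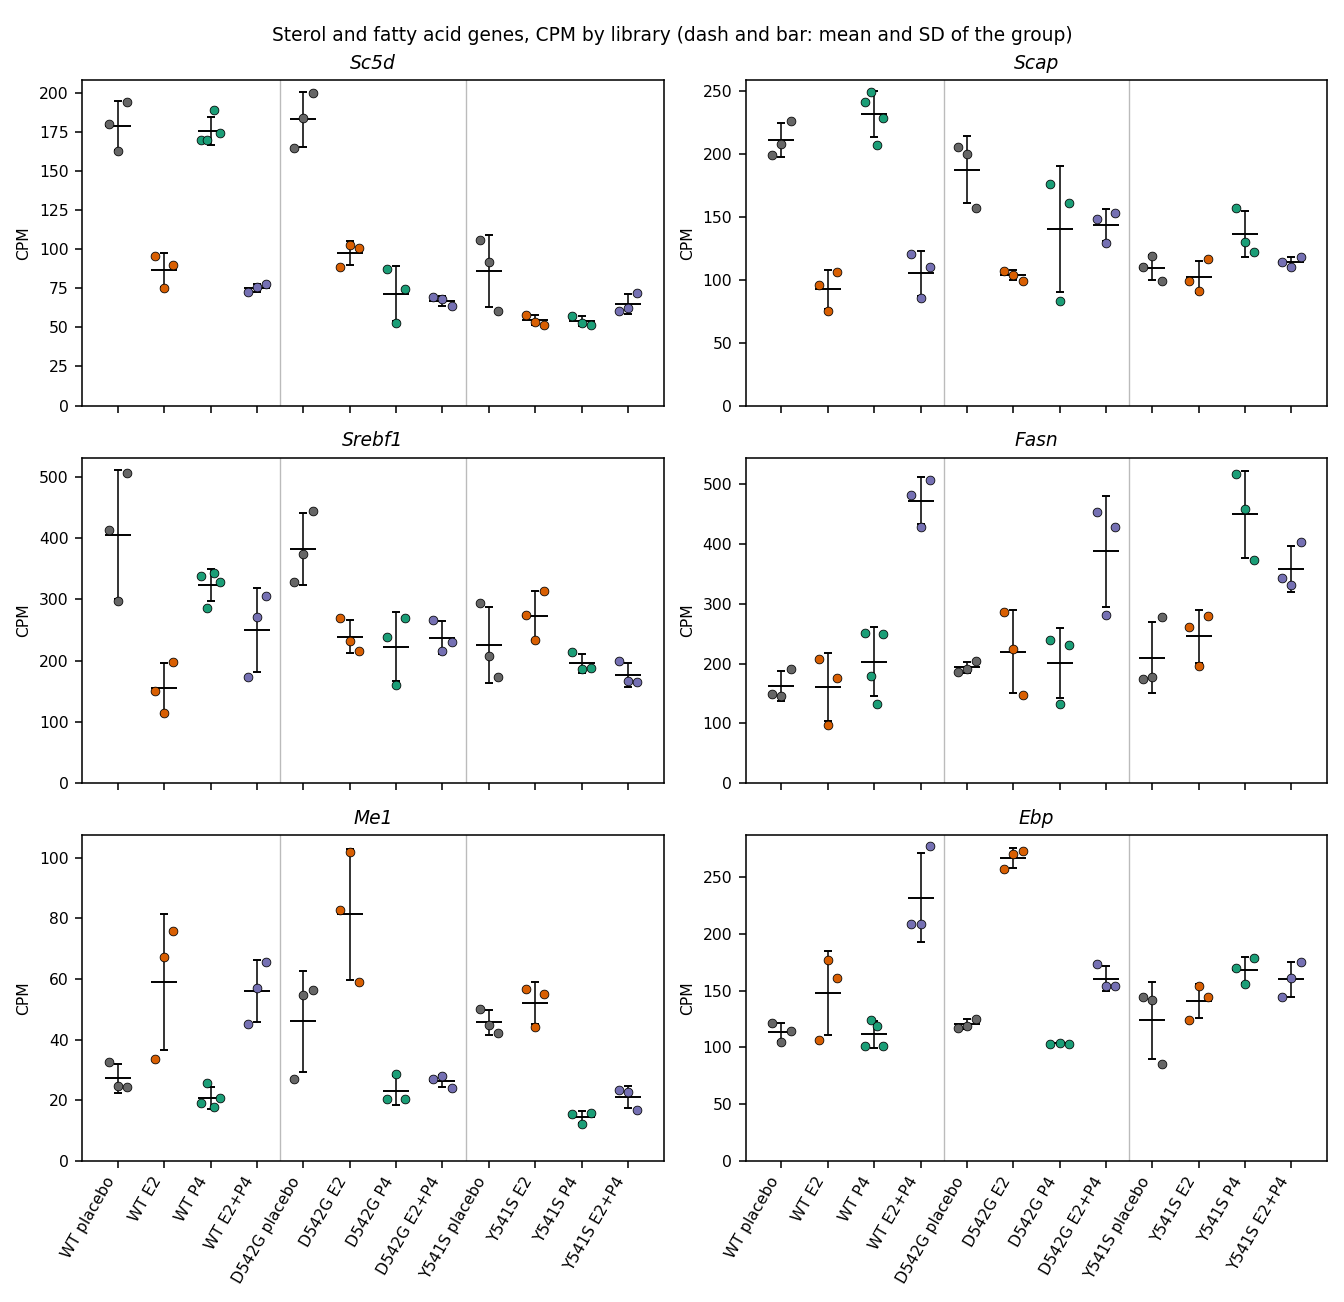
CPM per library of Sc5d, Scap, Srebf1, Fasn, Me1 and Ebp in the 12 groups, with the group mean as a dash and the SD as a bar. Sc5d lies between 163 and 200 CPM in WT and D542G placebo and between 60.5 and 106 in Y541S placebo, and Ebp reaches 277 CPM in WT E2+P4.

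Sqle and Cyp51 were highest in Y541S cells. Sqle encodes squalene epoxidase, a rate-controlling oxygen-dependent step (chr15:59315077-59331192, +), and Cyp51 the lanosterol 14-alpha-demethylase (chr5:4081145-4104746, -). Sqle stood at 534, 326 and 327 CPM in Y541S placebo and at 132, 139 and 179 in WT placebo. The groups did not overlap, and Sqle was higher in Y541S by 1.40 ± 0.25 (adjusted p = 0.000222). P4 brought it to 159, 156 and 139 CPM in Y541S, within the range of WT placebo, a fall of 1.39 ± 0.25 on the log2 scale (adjusted p = 0.000475). In WT, P4 libraries held 305, 243, 188 and 203 CPM (0.65 ± 0.23, adjusted p = 0.167). The P4 response of Sqle differed between Y541S and WT by -2.04 ± 0.34 (adjusted p = 0.00064), kept in each alternative.

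With E2, Sqle held 611, 488 and 537 CPM in Y541S (0.46 ± 0.24, adjusted p = 0.335) and 354, 436 and 320 in D542G against 199, 195 and 304 with placebo (0.67 ± 0.24, adjusted p = 0.0618). In WT E2 it held 127, 181 and 300.0 CPM (adjusted p = 0.177). None of these passed in the main fit, although the D542G groups did not overlap. Sqle passed in D542G E2 with DESeq2 (0.64, adjusted p = 0.0482) and without D542G placebo 3 (0.91, 0.0257). Without WT E2 1, Sqle passed in WT E2 (0.68, 0.0376). With Y541S E2+P4 it fell to 221, 231 and 256 CPM (-0.74 ± 0.24, adjusted p = 0.033). That call was lost without Y541S placebo 2 (-0.47, adjusted p = 0.25) or any 1 of the 3 E2+P4 libraries (-0.70 to -0.81, adjusted p = 0.0636 to 0.109). WT E2+P4, at 187, 111 and 155 CPM, was below WT P4 by 0.64 ± 0.23 (adjusted p = 0.0458), lost without WT P4 2 (-0.48, 0.148) or 3 (-0.62, 0.0784) or WT E2+P4 2 (-0.46, 0.233) or 3 (-0.65, 0.0975).

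Cyp51 followed with 222, 143 and 183 CPM in Y541S placebo against 41.8, 85.3 and 54.3 in WT placebo, without overlap (1.60 ± 0.30, adjusted p = 0.000517). Y541S P4 lowered it to 91.5, 72.3 and 94.9 CPM (-1.08 ± 0.30, adjusted p = 0.0171). That call was lost without Y541S placebo 2 (-0.92, adjusted p = 0.0828) or Y541S P4 1 (-1.13, 0.0514) or 2 (-0.97, 0.0889), while the difference between the P4 responses of Y541S and WT (-1.79 ± 0.41, adjusted p = 0.00828) was kept in each alternative. E2 raised Cyp51 in D542G from 41.9, 51.0 and 108 to 179, 179 and 154 CPM (1.34 ± 0.30, adjusted p = 0.0023). The 3 E2 libraries lay above all of placebo. In WT, E2 raised it to 96.4, 122 and 113 CPM (0.87 ± 0.30, adjusted p = 0.026), a call lost without WT placebo 1 (0.67, 0.145) or 3 (0.80, 0.094) or WT E2 2 (0.80, 0.0786) or 3 (0.85, 0.0541). A fit of the 2 groups alone also lost it (0.84, adjusted p = 0.0796).

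Msmo1, the C4 sterol methyl oxidase, responded to P4 in opposite directions in WT and D542G (chr8:64718139-64733792, -). WT placebo held 52.0, 52.0 and 63.6 CPM and WT P4 142, 138, 112 and 121, with every P4 library above placebo (1.2 ± 0.25, adjusted p = 0.0154). D542G placebo held 46.8, 52.1 and 72.7 CPM and D542G P4 31.5, 13.8 and 33.1, with every P4 library below placebo (-1.13 ± 0.27, adjusted p = 0.00391). Y541S P4, at 29.4, 21.8 and 30.0 CPM, lay below Y541S placebo at 45.4, 43.8 and 47.5 CPM but did not pass in the main fit. Msmo1 did pass there with DESeq2 (-0.81, adjusted p = 0.0221), with RLE factors (-0.81, 0.0458) and when the 2 groups were fitted alone (-0.79, 0.0442).
The P4 responses differed from that of WT by -2.33 ± 0.37 in D542G (adjusted p = 0.00128) and by -1.95 ± 0.37 in Y541S (adjusted p = 0.00168), and both differences were kept in each alternative. The WT call itself was lost without WT placebo 1 (1.15, adjusted p = 0.116), 2 (1.15, 0.0594) or 3 (1.30, 0.0554), and the D542G call in a fit of the 2 groups alone (-1.10, 0.0809). Without the second identifier series, with only WT P4 2 and 3 kept, the WT rise was 1.33 (adjusted p = 0.0244). WT E2+P4, at 61.7, 54.0 and 53.7 CPM, was below WT P4 by 1.18 on the log2 scale (adjusted p = 0.000921). WT E2 spread over 49.4, 116 and 114 CPM (0.74 ± 0.26, adjusted p = 0.0323), a call lost without WT placebo 1 (0.69, 0.101) or 2 (0.69, 0.0891) or WT E2 2 (0.55, 0.161) or 3 (0.57, 0.142). That call was also lost when the 2 groups were fitted alone (0.71, adjusted p = 0.175) and without WT placebo 2 and WT P4 2 (0.69, 0.0938).

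**Figure D3:**
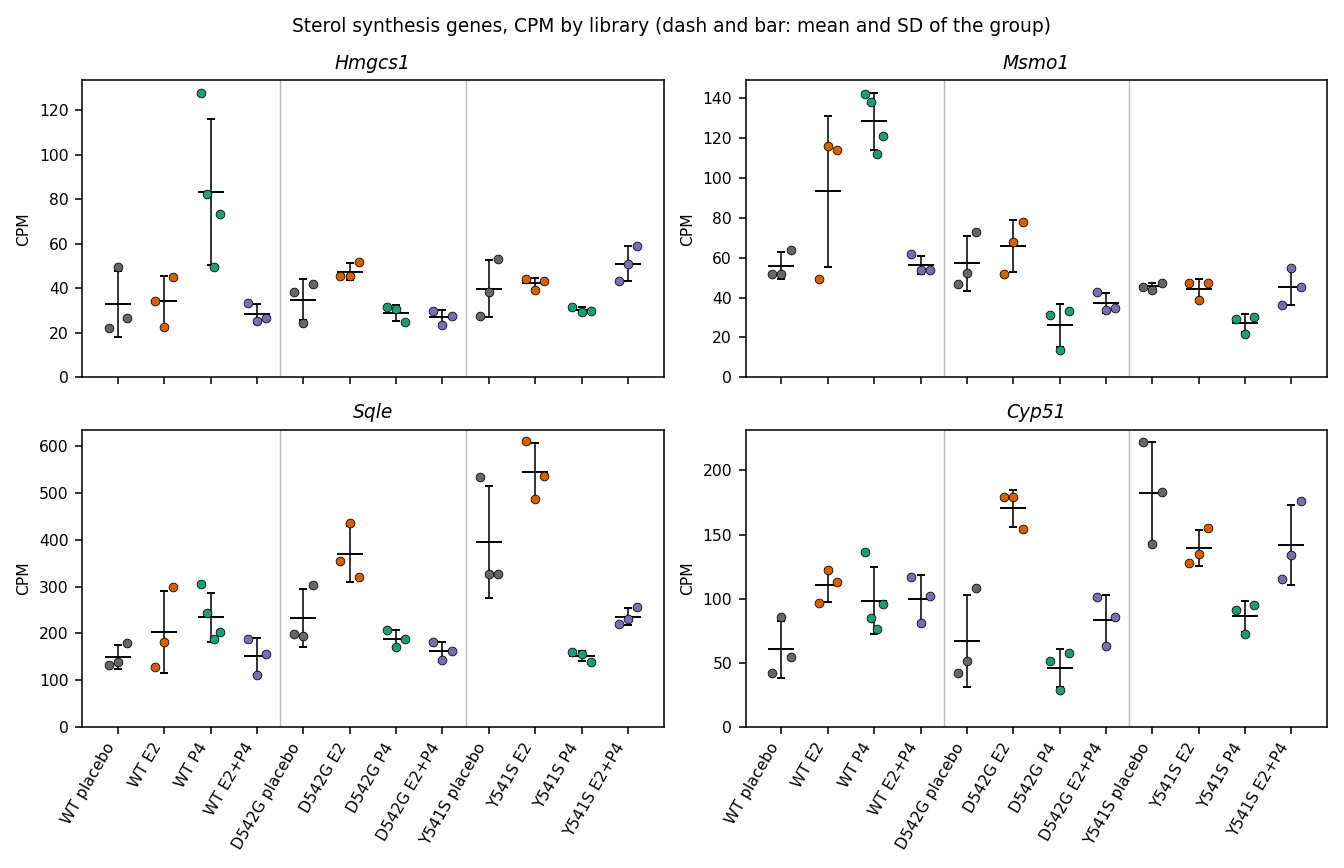
CPM per library of Hmgcs1, Msmo1, Sqle and Cyp51 in the 12 groups, with the group mean as a dash and the SD as a bar. Hmgcs1 and Msmo1 have their highest group in WT P4 (means 83.4 and 128 CPM), and Sqle and Cyp51 in Y541S, with E2 (546 CPM) and placebo (183 CPM).

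Fdft1, the squalene synthase that commits farnesyl units to sterols, fell in 4 of the 9 hormone comparisons. Another gene overlaps 2.2% of its span and 18.3% of its exon bases. WT placebo held 47.3, 45.4 and 51.6 CPM, WT E2 21.7, 22.9 and 23.9, and WT E2+P4 30.9, 31.2 and 32.8. The hormone libraries lay below placebo without overlap, and Fdft1 fell by 1.07 ± 0.19 with E2 (adjusted p = 9.86e-05) and by 0.60 ± 0.19 with E2+P4 (adjusted p = 0.0219). In D542G it fell from 46.7 ± 1.47 CPM with placebo to 29.4 ± 5.82 with P4 (-0.67, adjusted p = 0.0153) and 29.8 ± 2.55 with E2+P4 (-0.65, adjusted p = 0.0134). Y541S placebo held 36.5, 32.4 and 17.9 CPM, 0.73 ± 0.19 below WT placebo (adjusted p = 0.0102). The WT E2+P4 call was lost without WT placebo 3 (-0.55, 0.0819) or WT E2+P4 1 (-0.59, 0.0653) or 2 (-0.59, 0.0647), and the D542G calls without D542G P4 2 (-0.52, 0.123) and D542G E2+P4 3 (-0.60, 0.0553). The Y541S difference was lost without Y541S placebo 5 (-0.48, adjusted p = 0.0914) or WT placebo 3 (-0.68, 0.0509).

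Tm7sf2, one of the sterol C14 reductases, was low throughout, at 1.27 to 13.9 CPM. D542G E2 lowered it from 11.9, 6.95 and 6.38 to 3.24, 2.83 and 1.27 CPM (-1.78 ± 0.37, adjusted p = 0.00131). It was also lower in Y541S placebo, at 4.68, 3.76 and 1.58 CPM, than in WT placebo, at 10.4, 11.3 and 13.9 CPM (-1.82 ± 0.37, adjusted p = 0.00113). Neither pair of groups overlapped, and the latter call was lost when its 2 groups were fitted alone (-1.80, adjusted p = 0.0584). WT E2 lowered it to 4.40, 7.80 and 3.90 CPM (-1.14 ± 0.37, adjusted p = 0.0175), a call lost without WT placebo 3 (-1.01, 0.0707) or WT E2 1 (-1.02, 0.0719) or 3 (-0.96, 0.0818). A fit of the 2 groups alone also lost it (-1.18, adjusted p = 0.0567). Lbr, the other C14 reductase and a protein of the nuclear envelope, passed in no hormone comparison. It held 207 CPM in WT placebo 2 against 69.8 and 73.8 in the other placebo libraries, and without WT placebo 2 and WT P4 2 it rose with WT E2 (1.46, adjusted p = 0.000131).

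Among the remaining ring genes, D542G E2 lowered Dhcr7, the last enzyme of one route to cholesterol, from 17.5 ± 3.71 to 7.77 ± 2.09 CPM (-1.17 ± 0.35, adjusted p = 0.0206). That call was lost without D542G placebo 1 (-1.02, 0.0918) or D542G E2 1 (-0.97, 0.104). D542G P4 lowered Lss, the lanosterol synthase, from 16.8, 14.6 and 29.9 to 10.5, 6.31 and 13.2 CPM (-1.03 ± 0.31, adjusted p = 0.0203), lost without D542G placebo 3 (-0.65, 0.191) or D542G P4 2 (-0.79, 0.145). Another gene overlaps 44.1% of the Lss span and 68.5% of its exon bases. Nsdhl, a sterol dehydrogenase, was lower in Y541S placebo, at 23.7, 35.0 and 19.9 CPM, than in WT placebo, at 40.6, 45.6 and 47.7 CPM (-0.77 ± 0.17, adjusted p = 0.00279), a call lost when the 2 groups were fitted alone (-0.74, adjusted p = 0.119). In Y541S E2+P4 it was at 36.9 ± 1.45 CPM, a rise of 0.49 (adjusted p = 0.0441) that was lost without Y541S placebo 5 (0.33, 0.208), Y541S placebo 2 (0.43, 0.156) or any 1 of the 3 E2+P4 libraries (0.46 to 0.51, 0.0843 to 0.122). Hsd17b7, at 1.04 to 36.1 CPM, passed in none of the 9 hormone comparisons. With DESeq2 it fell in D542G E2 (-1.27, adjusted p = 0.0391).

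Scap, which encodes the SREBP escort protein, fell in 3 of the 9 hormone comparisons (chr9:110333288-110384950, +). WT placebo held 199, 208 and 226 CPM, WT P4 241, 249, 207 and 228, WT E2 95.6, 75.4 and 106, and WT E2+P4 120.0, 85.3 and 110.0. As with Sc5d, every WT library with E2 lay below every one without it. Scap fell by 1.19 ± 0.18 with E2 (adjusted p = 1.12e-05) and by 1.0 ± 0.18 with E2+P4 (adjusted p = 0.000131). D542G E2 lowered it from 205, 200 and 157 to 107, 104 and 99.2 CPM (-0.86, adjusted p = 0.00123), without overlap. In Y541S placebo it was at 110.0, 119 and 99.2 CPM, 0.94 ± 0.18 below WT placebo (adjusted p = 0.000553).

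With hormone, Scap in Y541S held 102 ± 12.8 CPM with E2, 136 ± 18.1 with P4 and 114 ± 3.69 with E2+P4, and none passed. The Y541S responses to E2 and E2+P4 differed from those of WT by 1.09 ± 0.25 (adjusted p = 0.00712) and 1.06 ± 0.25 (adjusted p = 0.00777), each kept in all alternatives. Srebf2, which encodes SREBP-2, moved little. Its group means lay between 203 and 316 CPM, a 1.56-fold range, and it fell in 1 of 9 hormone comparisons. There, D542G placebo held 288, 275 and 361 CPM and D542G E2+P4 231, 170.0 and 207 (-0.60 ± 0.18, adjusted p = 0.0145), a call lost without D542G placebo 3 (-0.47, 0.093) or D542G E2+P4 2 (-0.49, 0.0902).

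Insig1, which retains the SREBP complex and is itself a well-known SREBP target, passed in no comparison. WT placebo held 7.21, 21.1 and 8.56 CPM and WT E2 20.1, 28.8 and 23.4 (0.97 ± 0.45, adjusted p = 0.103). The high placebo value was that of WT placebo 2, and without WT placebo 2 and WT P4 2 Insig1 rose with WT E2 (1.61, adjusted p = 0.00397). WT P4 spread over 36.8, 17.4, 8.52 and 9.23 CPM. D542G libraries held 5.52 to 15.8 CPM and Y541S libraries 6.66 to 17.1 CPM, with adjusted p of 0.393 to 0.883 in their hormone comparisons. Stard4, which carries cholesterol between membranes, was at 0.136 to 14.4 CPM and likewise passed in none. WT placebo 2 held 9.24 CPM of Stard4, against 2.27 and 1.18 in WT placebo 1 and 3. Without WT placebo 2 and WT P4 2, Stard4 rose with WT E2 (2.34, adjusted p = 0.0366). Its highest group was Y541S E2, at 11.2, 11.9 and 14.4 CPM against 1.08, 2.46 and 5.64 with placebo.

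On the fatty acid side, Srebf1 fell in 5 of the 9 hormone comparisons. It encodes SREBP-1 and lies at chr11:60199089-60222581 (-). WT placebo held 414, 297 and 507 CPM, WT E2 151, 115 and 198, and WT E2+P4 174, 271 and 306. E2 libraries lay below all placebo libraries, and Srebf1 fell by 1.39 ± 0.23 on the log2 scale (adjusted p = 2.62e-05), a call kept in each alternative. With E2+P4 one library overlapped placebo and the fall was 0.70 ± 0.22 (adjusted p = 0.0221), lost without WT placebo 1 (-0.68, 0.0596) or 3 (-0.50, 0.158) or WT E2+P4 1 (-0.49, 0.151). WT E2+P4 stood above WT E2 by 0.69 (adjusted p = 0.0279), lost without WT E2 1 (0.68, 0.0687) or 2 (0.52, 0.169) or WT E2+P4 2 (0.63, 0.0965) or 3 (0.52, 0.179).

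D542G cells held Srebf1 at 328, 374 and 444 CPM with placebo, 269, 232 and 216 with E2, 238, 160.0 and 270.0 with P4 and 267, 215 and 231 with E2+P4. All 9 hormone libraries lay below placebo, with falls of 0.68 (adjusted p = 0.0366), 0.78 (adjusted p = 0.015) and 0.68 (adjusted p = 0.0235). Each was lost without D542G placebo 3 (-0.56, 0.144 for E2, -0.66, 0.081 for P4 and -0.56, 0.109 for E2+P4). They were also lost without D542G placebo 2 (-0.69, 0.0776) or D542G E2 2 (-0.66, 0.101) or 3 (-0.61, 0.131) for E2, without D542G P4 2 (-0.59, 0.125) for P4, and without D542G placebo 2 (-0.70, 0.0524) or D542G E2+P4 2 (-0.62, 0.0919) or 3 (-0.67, 0.0689) for E2+P4. In Y541S, placebo held 294, 207 and 174 CPM and E2 274, 233 and 313, which overlapped (0.28 ± 0.22, adjusted p = 0.565). Y541S P4 and E2+P4 held 196 ± 15.6 and 177 ± 19.4 CPM and did not pass either. The E2 response of Srebf1 differed between Y541S and WT by 1.67 ± 0.32 (adjusted p = 0.0011), kept in each alternative.

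Other markers moved in the WT E2 libraries in which Sc5d, Fdft1, Scap and Srebf1 fell. Of the 9 mature luminal markers, 7 fell (Prlr, Tbx3, Esr1, Pgr, Foxa1, Cited1 and Ly6a) and Krt8 rose, beside the 15.6% of all genes that rose and the 15.9% that fell. Of 6 tested leukocyte markers, Csf1r, Ptprc and Lyz2 rose, with a summed level of 18.2 to 130.0 CPM against 2.05 to 4.03 in placebo. The mitosis list had means of 3.25 to 4.85, against 0.57 and 0.68 in WT placebo 1 and 3. WT placebo 2, with a mitosis mean of 4.79, held Sc5d at 163, Fdft1 at 45.4, Scap at 208 and Srebf1 at 297 CPM, above every WT E2 library. Without WT placebo 2 and WT P4 2, Sc5d fell by 1.11, Fdft1 fell by 1.11, Scap fell by 1.2 and Srebf1 fell by 1.57 on the log2 scale. With WT E2+P4, 6 mature luminal markers fell and Krt8 rose, beside 11.5% of all genes that fell and 11.8% that rose. In D542G, 3 mature luminal markers fell and 2 rose with E2, beside 7.34% and 8.36% of all genes. With D542G P4, 3 fell and none rose, beside 8.88% and 9.49%. With D542G E2+P4, 7 fell and none rose, beside 12.4% and 13%. WT placebo 2 is a single library that also had a high basal mean (5.44). The part of the mature luminal, leukocyte and mitosis markers in these results was not tested.

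Me1, the malic enzyme that supplies NADPH, rose with E2 and fell with P4 in several groups (chr9:86581371-86695953, -). WT placebo held 32.7, 24.7 and 24.3 CPM, WT E2 33.6, 67.4 and 75.9, and WT E2+P4 45.1, 57.1 and 65.5. It rose by 1.11 ± 0.26 (adjusted p = 0.00174) and 1.04 ± 0.26 (adjusted p = 0.00437). WT P4, at 18.9, 25.8, 17.6 and 20.8 CPM, did not pass. Both hormone groups lay above placebo, the lowest E2 library by a small margin, and the E2 call was lost when the 2 groups were fitted alone (1.08, adjusted p = 0.0569).

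Y541S P4 lowered Me1 from 50.2, 44.7 and 42.1 to 15.5, 12 and 15.8 CPM (-1.66 ± 0.27, adjusted p = 0.000144), and Y541S E2+P4 lowered it to 23.5, 22.8 and 16.8 CPM (-1.12 ± 0.26, adjusted p = 0.00343). Neither hormone group reached the placebo range. In D542G, placebo spread over 26.9, 54.6 and 56.4 CPM, P4 held 20.3, 28.6 and 20.3 (-0.99, adjusted p = 0.00905) and E2+P4 26.9, 28.0 and 24.1 (-0.80, adjusted p = 0.0242), both overlapping placebo. The response to E2+P4 differed from WT by -1.84 ± 0.37 in D542G (adjusted p = 0.00419) and by -2.16 ± 0.37 in Y541S (adjusted p = 0.000342). Combined hormone thus raised Me1 in WT and lowered it in both mutants, and these 2 differences were kept in each alternative. The D542G P4 call was lost without D542G placebo 2 (-0.86, 0.0548) or 3 (-0.82, 0.0592), and the D542G E2+P4 call without D542G placebo 2 (-0.66, 0.116) or 3 (-0.63, 0.124) or D542G E2+P4 1 (-0.82, 0.0553) or 3 (-0.75, 0.0829). D542G E2 held 82.8, 102 and 59.0 CPM, a rise of 0.82 (adjusted p = 0.0309) lost without D542G placebo 1 (0.54, 0.205) or D542G E2 1 (0.80, 0.0704) or 2 (0.62, 0.162).

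Acss2 and Acly make acetyl-CoA, from acetate and from citrate. D542G E2 lowered Acss2 from 21.6, 17.5 and 24.0 to 6.01, 7.66 and 8.75 CPM, without overlap (-1.49 ± 0.34, adjusted p = 0.00293). WT E2 lowered it from 17.4, 28.7 and 25.5 to 13.3, 14.7 and 9.69 CPM (-0.92 ± 0.34, adjusted p = 0.0371), lost without WT placebo 2 (-0.77, 0.124) or 3 (-0.87, 0.0958) or WT E2 1 (-0.97, 0.068) or 3 (-0.77, 0.135). The WT E2 call was also lost when the 2 groups were fitted alone (-0.96, adjusted p = 0.0554) and without the filter on low counts (-0.92, 0.0592). It was lost without WT placebo 2 and WT P4 2 as well (-0.77, 0.122). Other genes overlap 49.4% of the Acss2 span and 52.2% of its exon bases. Acly, at 268 to 850.0 CPM, passed in 1 of the 9 hormone comparisons, D542G E2+P4, with 588 ± 139 against 407 ± 7.45 CPM (0.53 ± 0.20, adjusted p = 0.0467). Leaving out any 1 of 5 of those 6 libraries, D542G E2+P4 2 excepted, lost the call (0.42 to 0.54, adjusted p = 0.0966 to 0.18).

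Fasn, the fatty acid synthase, was raised by the combined hormones in all 3 genotypes (chr11:120805846-120824547, -). WT placebo held 150.0, 146 and 191 CPM, WT E2 208, 97.5 and 176, WT P4 251, 180.0, 133 and 250, and WT E2+P4 482, 429 and 507. The combined group lay above every other WT library. Fasn rose by 1.54 ± 0.28 against placebo (adjusted p = 0.000136), 1.56 ± 0.28 against E2 (adjusted p = 0.000191) and 1.22 ± 0.25 against P4 (adjusted p = 0.000706). Neither hormone alone passed in WT (-0.02 and 0.33 on the log2 scale, adjusted p = 0.979 and 0.635). In D542G, Fasn rose from 186, 191 and 204 to 453, 282 and 429 CPM with E2+P4 (1.01 ± 0.28, adjusted p = 0.0077).

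In Y541S, P4 alone raised Fasn from 174, 178 and 278 to 518, 459 and 373 CPM (1.10 ± 0.28, adjusted p = 0.00887), and E2+P4 to 343, 331 and 403 CPM (0.78 ± 0.27, adjusted p = 0.0475). No library of either group overlapped placebo. The P4 call was lost without Y541S placebo 2 (0.98, 0.0546) or 3 (0.99, 0.0517) or Y541S P4 1 (0.99, 0.0505), and the E2+P4 call without any 1 of 5 of its 6 libraries, Y541S placebo 5 excepted (0.66 to 0.83, adjusted p = 0.0739 to 0.175). The P4 response of Fasn was not called different between Y541S and WT.

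Acaca, the acetyl-CoA carboxylase that makes malonyl-CoA, was at 2.30 to 28.5 CPM. D542G placebo held 5.54, 3.25 and 5.37 CPM, P4 9.46, 28.5 and 11.1 and E2+P4 8.29, 17.3 and 13.4. Both hormone groups lay above placebo, with rises of 1.79 ± 0.46 (adjusted p = 0.0074) and 1.46 ± 0.46 (adjusted p = 0.0186). The P4 value rested in part on D542G P4 2, without which it was 1.12 (adjusted p = 0.124), and it was also lost without D542G placebo 2 (1.58, 0.0535). D542G P4 2 is the library with the high fibroblast and leukocyte markers given above, and the D542G P4 calls of Fdft1, Lss and Srebf1 were lost without it as well. The part of those markers was not tested. The E2+P4 call was lost without D542G placebo 2 (1.25, 0.1) or D542G E2+P4 2 (1.2, 0.0916). In Y541S placebo, library 5 held 13.4 CPM and the others 2.30 and 3.17, and without library 5 Acaca rose with Y541S E2 (1.49, adjusted p = 0.0164), P4 (1.70, 0.00576) and E2+P4 (1.81, 0.0021). Elovl6, the elongase of C16 chains, held group means of 10.9 to 17.5 CPM and passed in none of the 9 comparisons.

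The desaturases spanned the widest ranges of all members. Fads1 and Fads2 encode the front-end desaturases of polyunsaturated fatty acids and are neighbours at chr19:10182888-10196877 (+) and chr19:10062765-10101746 (-). Group means of Fads2 ran from 17.1 CPM in D542G E2 to 398 in WT E2, a 23.2-fold range, and those of Fads1 from 23.6 to 429 CPM in the same groups, an 18.2-fold range. In WT placebo, Fads2 held 46.1, 64.7 and 66.0 CPM and in WT E2 315, 434 and 444. Fads1 held 94.7, 121 and 127 CPM in WT placebo and 354, 461 and 471 in WT E2. E2 libraries lay far above placebo for both, and Fads2 rose by 2.75 ± 0.40 (adjusted p = 6.48e-06) and Fads1 by 1.91 ± 0.33 (adjusted p = 4.93e-05), each kept in all alternatives.

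In D542G cells P4 raised this pair, alone and with E2. Placebo held 35.9, 36.0 and 25.0 CPM of Fads2 and P4 173, 310.0 and 202, a rise of 2.82 ± 0.40 (adjusted p = 3.43e-05). Fads1 rose from 61.9, 62.4 and 38.9 to 240.0, 287 and 233 CPM (2.22 ± 0.33, adjusted p = 4.82e-05). With D542G E2+P4 the levels were 200, 217 and 192 CPM for Fads2 and 285, 310.0 and 268 for Fads1, rises of 2.65 (adjusted p = 1.6e-05) and 2.40 (adjusted p = 4.71e-06). With D542G E2, by contrast, Fads2 held 17.6, 8.01 and 25.7 CPM and did not pass, and Fads1 fell to 19.5, 12.5 and 38.9 CPM (-1.2 ± 0.32, adjusted p = 0.00989).
The Fads1 fall was lost without D542G E2 1 (-1.08, 0.0509) or 2 (-0.90, 0.0757). WT P4 libraries, at 55.3, 59.5, 44.7 and 44.9 CPM of Fads2, lay in or near the placebo range.

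The response of the pair differed between the genotypes by test. Against WT, the E2 response of D542G was lower by 3.67 ± 0.55 for Fads2 (interaction log2 value -3.67, adjusted p = 0.000104) and by 3.11 ± 0.46 for Fads1 (-3.11, adjusted p = 8.68e-05). The P4 response of D542G was higher by 3.03 ± 0.52 (adjusted p = 0.00252) and 2.55 ± 0.44 (adjusted p = 0.00224). These 4 differences were kept in each alternative. In WT E2+P4, Fads2 held 209, 89.9 and 88.9 CPM and Fads1 286, 124 and 150.0, with library 1 above the others. Fads2 rose against placebo by 1.13 ± 0.38 (adjusted p = 0.0309), lost without WT E2+P4 1 (0.60, 0.299) or WT placebo 1 (0.98, 0.127), 2 (1.2, 0.0541) or 3 (1.22, 0.0588). Fads2 fell by 1.62 ± 0.39 against WT E2 (adjusted p = 0.00342, and 0.0515 when the 2 groups were fitted alone) and Fads1 fell by 1.2 ± 0.32 (adjusted p = 0.00818), the latter lost without WT E2+P4 2 (-0.98, 0.0651) or 3 (-1.06, 0.0595). Against WT P4 both were higher, Fads2 by 1.34 (adjusted p = 0.00588) and Fads1 by 1.04 (adjusted p = 0.00986), and both were lost without WT E2+P4 1 (0.81, 0.129 and 0.59, 0.186).

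In Y541S, Fads2 held 69.3, 37.1 and 165 CPM with placebo, the last in library 5, and 181, 218 and 173 with E2, 90.8, 88.4 and 94.4 with P4 and 149, 106 and 116 with E2+P4. No comparison passed for Fads1 or Fads2 with all libraries. Without Y541S placebo 5, the E2 rise was 1.84 for Fads2 (adjusted p = 0.00161) and 1.33 for Fads1 (adjusted p = 0.011), and Fads2 also passed with E2+P4 (1.22, adjusted p = 0.0194).

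**Figure D4:**
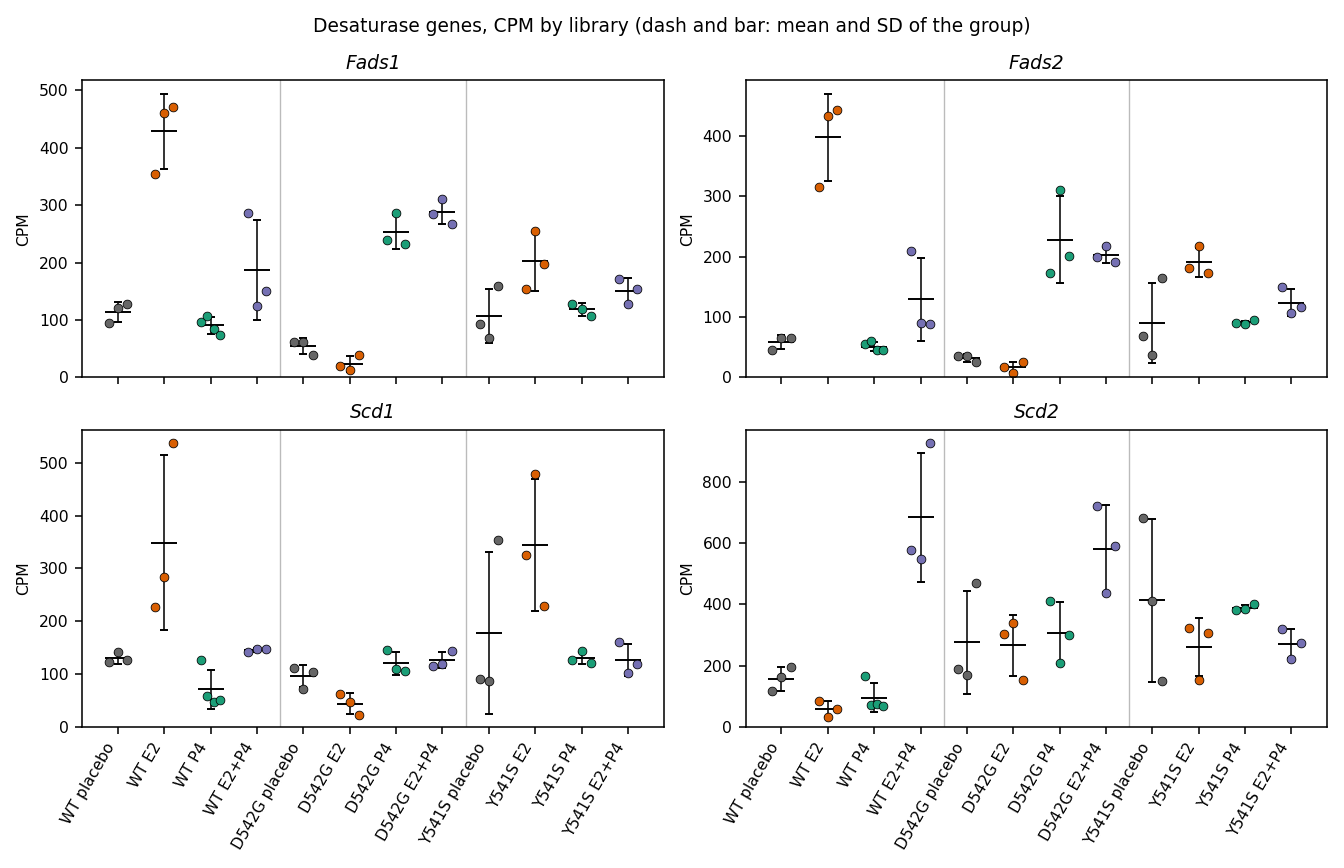
CPM per library of Fads1, Fads2, Scd1 and Scd2 in the 12 groups, with the group mean as a dash and the SD as a bar. Fads1 and Fads2 are highest in WT E2 and lowest in D542G E2, and Scd2 is highest in WT E2+P4 (685 ± 210 CPM) and lowest in WT E2 (58.1 ± 27.1 CPM).

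Luminal progenitor and alveolar markers (Elf5, Kit, Aldh1a3, Cd14, Csn2, Csn1s1, Wap, Lalba and Trf) moved beside the Fads pair. In WT E2, 6 of the 9 rose and none fell, beside 15.6% of all genes that rose, with a mean log2 CPM of 5.05 to 5.53 per library against 2.81 to 3.31 in placebo, and a summed level of 2780 to 6600 against 684 to 746 CPM. With D542G P4 and D542G E2+P4, 5 of the 9 rose in each, beside 9.49% and 13% of all genes, with means of 3.72 to 4.71 and 4.33 to 4.55 against 2.20 to 2.70 in placebo. In D542G E2, at 2.5 to 2.98, none rose and 1 fell, beside 8.36% and 7.34% of all genes. Y541S E2 had the highest means of all groups, 5.37 to 6.91, with Fads2 at 173 to 218 CPM. Wap was at 0 in 21 of the 37 libraries and Csn2 and Csn1s1 in 5 each. The part of these markers in the Fads1 and Fads2 results was not tested.

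**Figure D5:**
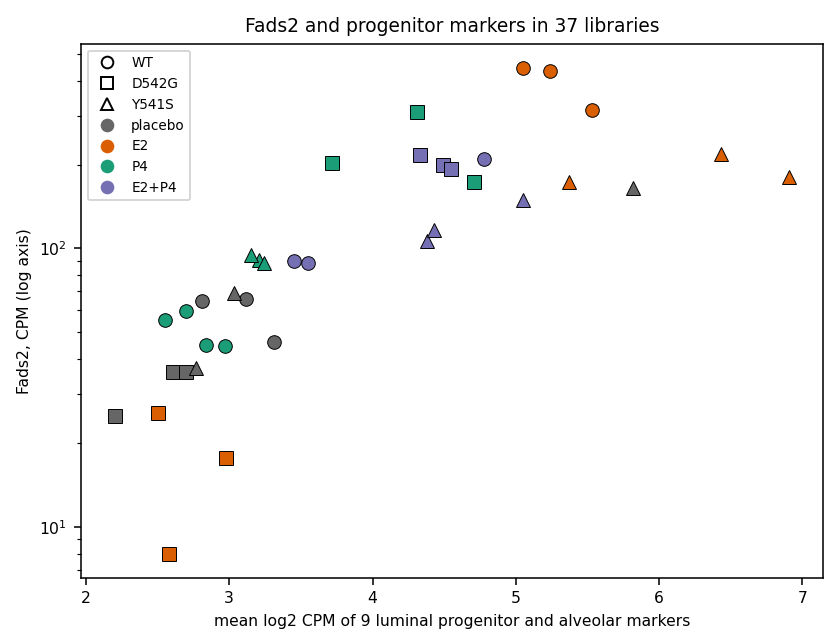
Fads2 CPM (log axis) against the mean log2 CPM of the 9 luminal progenitor and alveolar markers. Each of the 37 libraries is 1 point, with treatment by colour and genotype by shape. WT E2 lies at the upper right, D542G E2 at the lower left, and Y541S E2 has higher marker means (up to 6.91) with lower Fads2 than WT E2.

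Scd1 and Scd2 encode stearoyl-CoA desaturases, which make monounsaturated fatty acids. They are similar neighbours (chr19:44394455-44407879, - and chr19:44293674-44306864, +), so counting could split shared reads between them. Their levels moved apart. WT placebo held 116, 162 and 194 CPM of Scd2, WT E2 85.9, 31.8 and 56.5, WT P4 167, 71.1, 74.8 and 66.7, and WT E2+P4 579, 548 and 927. The combined group lay above every other WT library. Scd2 rose by 2.12 ± 0.48 against placebo (adjusted p = 0.00153), by 3.56 ± 0.51 against E2, which is 11.8-fold (adjusted p = 1.02e-05), and by 2.85 ± 0.44 against P4 (adjusted p = 1.93e-05), all kept in each alternative.

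With E2 alone, Scd2 fell in WT by 1.44 ± 0.47 (adjusted p = 0.0201), lost without WT placebo 3 (-1.26, 0.0776) or WT E2 2 (-1.14, 0.109) or 3 (-1.42, 0.0536). Scd1 rose there, from 122, 141 and 126 to 226, 284 and 537 CPM (1.43 ± 0.43, adjusted p = 0.0125), lost without WT E2 3 (0.97, adjusted p = 0.106). In WT E2+P4, Scd1 was back at 141, 147 and 147 CPM, in or near the placebo range. In D542G E2 it held 62.6, 47.1 and 22.0 CPM against 112, 72.1 and 103 (-1.12 ± 0.43, adjusted p = 0.0758), and the E2 response differed from WT by -2.55 ± 0.61 (adjusted p = 0.00723), kept in each alternative. The D542G E2 fall of Scd1 passed with DESeq2 (-1.16, adjusted p = 0.0349) and without the second identifier series (-1.12, 0.0193). It also passed without D542G E2 1 (-1.47, 0.048).

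Scd2 in D542G held 188, 168 and 471 CPM with placebo, 305, 341 and 152 with E2, 410.0, 208 and 299 with P4 and 722, 436 and 590.0 with E2+P4, and none passed (1.08 ± 0.47 and adjusted p = 0.0885 for E2+P4). Scd1 in D542G held 145, 110.0 and 105 CPM with P4 and 116, 119 and 144 with E2+P4, which did not pass. Y541S placebo spread widely, with Scd2 at 683, 410.0 and 149 CPM and Scd1 at 90.4, 87.2 and 354, where library 5 was lowest for Scd2 and highest for Scd1. Y541S E2 held Scd1 at 326, 478 and 229 CPM (0.96 ± 0.43, adjusted p = 0.234), and without Y541S placebo 5 it rose by 1.96 (adjusted p = 0.00205). With Y541S E2+P4, Scd2 held 319, 222 and 275 CPM, and that response differed from WT by -2.73 ± 0.66 (adjusted p = 0.00867), kept in each alternative.

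Several members also separated the combined treatment from the single hormones in WT. Against WT P4, WT E2+P4 had Ebp higher by 1.06 (adjusted p = 5.1e-06) and Me1 higher by 1.43 (adjusted p = 6.58e-05). Fdft1 fell by 0.77 (adjusted p = 0.00242), Sc5d fell by 1.22 (adjusted p = 4.31e-07) and Scap fell by 1.13 (adjusted p = 1.45e-05) in that comparison. Against WT E2, Ebp was higher by 0.65 (adjusted p = 0.00512) and Ggps1 by 0.43 (adjusted p = 0.00795), both lost without WT E2+P4 3 (0.50, 0.0626 and 0.36, 0.0706). Scd1 fell by 1.27 against WT E2 (adjusted p = 0.0389), a call lost without any 1 of 5 of the 6 libraries, WT E2 1 excepted (-0.81 to -1.40, adjusted p = 0.052 to 0.227).

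With placebo, D542G differed from WT in no member by edgeR (2 sterol and 3 fatty acid genes at an unadjusted p under 0.05, while 1.24% and 0.782% of all genes were higher and lower). DESeq2 called 1 of them, Fads1 (-1.07, adjusted p = 0.029). Y541S placebo had 2 sterol genes higher (Sqle and Cyp51) and 5 lower (Fdft1, Tm7sf2, Nsdhl, Sc5d and Scap) than WT placebo, with a background of 7.18% and 6.22%. That is 30.4% of the sterol list beside 13.4% of all genes. Of the fatty acid genes, Scd2 was higher by 1.40 ± 0.47 with overlapping groups (adjusted p = 0.0461), and Srebf1 was lower by 0.85 ± 0.22 (adjusted p = 0.0099). The Scd2 call was lost without any 1 of the 6 libraries except Y541S placebo 5 (0.83 to 1.58, adjusted p = 0.0764 to 0.293). The Srebf1 call was lost without Y541S placebo 5 (-0.70, 0.0763) or WT placebo 3 (-0.66, 0.0954). When the 2 groups were fitted alone, the calls of Sqle, Cyp51, Sc5d and Scap were kept and the other 5 lost (adjusted p = 0.0584 to 0.172).

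Markers also differed between these placebo groups. Of the 9 mature luminal markers, 5 were lower in Y541S (Prlr, Tbx3, Esr1, Foxa1 and Cited1) and Krt8 was higher. Of the 9 luminal progenitor and alveolar markers, 4 were higher (Elf5, Trf, Csn2 and Csn1s1), beside 7.18% of all genes higher and 6.22% lower. The mean of that list was 2.81 to 3.31 in WT. In Y541S it was 3.03, 2.77 and, in library 5, 5.82. Another gene overlaps 95.9% of the exon bases of Trf. The fibroblast markers Col1a1 and Dcn were higher. The 6 fibroblast markers had means of 3.75 to 5.28 in Y541S against 1.79 to 2.04 in WT. Their summed level was 441 to 4100 CPM in Y541S against 37.5 to 279 in WT. Over all libraries, Dcn reached 4050 CPM and the next highest, Col3a1, 212 CPM, so the largest sums were mostly Dcn. Y541S placebo 5 had the highest mean and the lowest sum of its group. Mitosis means were 3.98 to 4.65 in Y541S and 0.57, 4.79 and 0.68 in the 3 WT libraries. The part of these markers in the differences of Sqle, Cyp51, Sc5d, Scap and the other members was not tested.

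Over the 6 tests of whether a mutant's hormone response differed from that of WT, 25 of 204 gene tests passed. The share of all genes that passed was 9.23% for D542G E2, 3.35% for D542G P4, 4.30% for D542G E2+P4, 8.02% for Y541S E2, 7.33% for Y541S P4 and 8.68% for Y541S E2+P4. Of the 34 members, 4, 5, 3, 3, 6 and 4 passed in these tests.

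Other lipid genes, from 5 lists, were counted in the same fits, and their levels are given as group means. Mvd, Agpat2 and G6pdx of these lists had 0 counts and were not tested. Other genes overlap 100% of their exon bases, and reads in overlapped parts of members may likewise be missing. Of 16 tested genes of other fatty acid and glycerolipid synthesis, 3 rose and 4 fell with WT E2, which is 43.8% beside 31.5% of all genes. With WT P4 none rose and 1 fell (6.25% beside 1.43%), and with WT E2+P4 7 rose and 3 fell (62.5% beside 23.4%). In D542G, 6 rose and 2 fell with E2 (50% beside 15.7%), none and 6 with P4 (37.5% beside 18.4%), and 3 and 4 with E2+P4 (43.8% beside 25.4%). In Y541S, none rose and 3 fell with E2 (18.8% beside 4.65%), 1 and 2 with P4 (18.8% beside 11.3%), and 2 and 3 with E2+P4 (31.2% beside 18.5%). These lists are short, and their shares were not compared with the background by test. Dgat2, which joins the last acyl chain to triglyceride, fell in WT E2 from 1180.0 to 61.2 CPM (-4.27 ± 0.44, adjusted p = 5.69e-08) and in D542G P4 from 1690.0 to 275 CPM (-2.62 ± 0.41, adjusted p = 8.9e-05). Gpam, the glycerol-3-phosphate acyltransferase of mitochondria, fell in WT E2 from 78.3 to 15.1 CPM (-2.37 ± 0.31, adjusted p = 1.88e-06). In Y541S E2, Dgat2 fell from 344 to 67.8 CPM with overlapping groups (-2.34, adjusted p = 0.000922). Hsd17b12, a ketoacyl reductase of chain elongation, rose in WT E2+P4 from 127 to 460.0 CPM (1.86 ± 0.15, adjusted p = 4.55e-10).
Elovl7, another elongase, fell in D542G E2+P4 from 297 to 72.2 CPM (-2.04 ± 0.20, adjusted p = 3.05e-08) and in Y541S E2+P4 from 196 to 92.4 CPM (-1.08, adjusted p = 0.000262). Idh1 and Pgd supply NADPH. Idh1 was higher in Y541S placebo than in WT placebo, at 442 against 93.3 CPM (2.25 ± 0.30, adjusted p = 7.16e-06), and Y541S P4 lowered it to 105 CPM (-2.07 ± 0.30, adjusted p = 5.13e-05). Pgd rose in D542G E2 from 225 to 379 CPM (0.75, adjusted p = 9.11e-05). Idh1 also fell in WT P4 (-1.07, adjusted p = 0.042), a call lost in 10 of 14 alternatives (adjusted p up to 0.374).

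Of 6 genes of sterol storage, trafficking and uptake, 3 rose and none fell with WT E2 and with WT E2+P4 (50% beside 31.5% and 23.4% of all genes). With P4 none was called in WT (beside 1.43%), 2 rose and 1 fell in D542G (50% beside 18.4%), and 1 fell in Y541S (16.7% beside 11.3%). Npc2, which moves cholesterol out of lysosomes, rose with E2+P4 in WT from 176 to 655 CPM (1.90 ± 0.14, adjusted p = 1.8e-10) and in D542G from 178 to 444 CPM (1.32 ± 0.14, adjusted p = 1.28e-07). Soat1, which esterifies cholesterol, fell with Y541S P4 from 207 to 43.4 CPM (-2.25 ± 0.41, adjusted p = 0.000589). Of 5 genes of sterol export and the liver X receptors, none rose in WT, and 2 fell with E2 (40% beside 31.5%), none with P4 (beside 1.43%) and 1 with E2+P4 (20% beside 23.4%). Of 6 tested genes of other sterol synthesis and SREBP control, none rose and 3 fell with WT E2 (50% beside 31.5%), and 1 rose and 1 fell with WT E2+P4 (33.3% beside 23.4%). Insig2, the second SREBP retention gene, fell in Y541S with E2 from 154 to 64.1 CPM (-1.27, adjusted p = 0.00352) and with E2+P4 to 54.3 CPM (-1.51, adjusted p = 0.000146). Lpin1, a phosphatidate phosphatase, fell in D542G E2 from 40.3 to 13.3 CPM (-1.60, adjusted p = 0.000161).
Of 11 genes of fatty acid oxidation, 1 rose and 4 fell with WT E2 (45.5% beside 31.5% of all genes), none was called with WT P4 (beside 1.43%), and 4 rose and 1 fell with WT E2+P4 (45.5% beside 23.4%). Acadl, a long-chain acyl-CoA dehydrogenase, fell in D542G P4 from 852 to 460.0 CPM (-0.89, adjusted p = 0.000117) and was lower in Y541S than in WT placebo, at 494 against 975 CPM (-0.98, adjusted p = 2.04e-05). Elovl7 was the gene of these lists that differed between D542G and WT placebo (0.76, adjusted p = 0.0327), a call lost without any 1 of 5 of the 6 libraries, WT placebo 1 excepted (0.59 to 0.89 over all its alternatives, with adjusted p up to 0.223). The Y541S E2 calls of Dgat2 and Insig2 were lost when the 2 groups were fitted alone (adjusted p = 0.168 and 0.157).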

How the data were processed

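RNA-seq of sorted mammary luminal cells was used as gene counts, which the authors deposited per library beside RPKM values. The deposited RPKM values were not used. Reads refer to build GRCm38, per the submitters' processing notes. Neither aligner nor strand setting is given in the sources used here. Counts entered edgeR 4.0.16 in R 4.3.3 (TMM factors, filterByExpr by group with a minimum count of 10, 1 coefficient per group, robust quasi-likelihood test, Benjamini-Hochberg adjustment, threshold 0.05), and 18426 of 52636 genes were tested. The common biological coefficient of variation was 0.458 on 25 residual degrees of freedom. CPM used TMM-scaled library sizes. Marker means used log2(CPM + 0.5). Libraries of 1 group always differed by more than counting error (chi-square over degrees of freedom of 23.3 to 313.3 in 39 pairs). The test was run on counts simulated from its own fitted spread per gene, with changes placed in WT E2 against WT placebo. Since such counts follow the model of the test, they cannot show how it behaves with outlying libraries. Gene positions come from GENCODE M21.

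The members, the lists and the tests were chosen with earlier results of these data known. All 34 genes are accounted for. Values per library are given for up to 4 called sterol and 4 called fatty acid genes with the smallest p per comparison, and for Insig1, Srebf1, Srebf2, Sqle, Hmgcs1, Fasn, Scd1 and Scd2. Of each comparison between 2 groups, up to 2 called pathway genes with the smallest p are named. Alternatives were RLE factors, DESeq2 1.42.0, no filter on low counts, a replicate block, leaving out the 3 libraries of a second identifier series (WT P4 4, WT P4 5 and Y541S placebo 5), leaving out WT placebo 2 and WT P4 2, fitting the compared groups alone, and leaving out each library.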

Additional observations from a re-analysis of the deposited data

Results flagged for a closer look

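WT P4 was the group large enough for a test of single libraries, and in 5 of the 34 genes library 2 stood apart from the other 3 by Dixon's criterion, where chance gives about 1 in 20. Its CPM was 19.7 for Lss (others 9.76 to 11.2), 179 for Lbr (71.1 to 84.3), 8.99 for Stard4 (1.38 to 1.56), 127 for Scd1 (47.7 to 57.4) and 167 for Scd2 (66.7 to 74.8). This library also had the high mitosis and basal marker levels given above, and their part in these values was not tested.

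The hormone response differed from that of WT in 25 tests, as differences of log2 fold changes (edgeR, adjusted p in brackets). For E2 in D542G these were Ebp at 0.76 (0.0334), Scd1 at -2.55 (0.00723), Fads1 at -3.11 (8.68e-05) and Fads2 at -3.67 (0.000104). For P4 in D542G they were Hmgcs1 at -1.61 (0.0242), Msmo1 at -2.33 (0.00128), Sc5d at -1.33 (0.00128), Fads1 at 2.55 (0.00224) and Fads2 at 3.03 (0.00252). For E2+P4 in D542G they were Ggps1 at -0.56 (0.0461), Me1 at -1.84 (0.00419) and Fads1 at 1.69 (0.0275). For E2 in Y541S they were Fdft1 at 0.87 (0.0458), Scap at 1.09 (0.00712) and Srebf1 at 1.67 (0.0011). For P4 in Y541S they were Hmgcs1 at -1.73 (0.00846), Sqle at -2.04 (0.00064), Cyp51 at -1.79 (0.00828), Msmo1 at -1.95 (0.00168), Nsdhl at 0.90 (0.0191) and Me1 at -1.27 (0.0303). For E2+P4 in Y541S they were Sc5d at 0.84 (0.0128), Scap at 1.06 (0.00777), Me1 at -2.16 (0.000342) and Scd2 at -2.73 (0.00867).

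Single libraries ended some of these calls. Ggps1 was lost without any 1 of 10 of its 12 libraries (-0.48 to -0.61, adjusted p = 0.0538 to 0.149), and Fdft1 without any 1 of 9 (0.62 to 0.93, adjusted p = 0.054 to 0.15). Fads1 with E2+P4 was lost without WT placebo 2 or 3, WT E2+P4 2 or 3, D542G placebo 3 or D542G E2+P4 2 (1.47 to 1.65, adjusted p = 0.0605 to 0.0928). Nsdhl was lost without WT placebo 3, Y541S P4 1 or Y541S placebo 5 (0.74 to 0.85, adjusted p = 0.052 to 0.0654). Me1 with P4 was lost without WT placebo 2 or 3, WT P4 3, Y541S placebo 2 or any 1 of the 3 Y541S P4 libraries (-1.15 to -1.34, adjusted p = 0.0522 to 0.0849). The Y541S E2+P4 difference of Sc5d was lost without the second identifier series (0.64, adjusted p = 0.0512) and in a fit of its 4 groups alone (0.85, 0.0764).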

How the results depend on the processing

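No called fold change of a member changed sign in any alternative. Of 126 calls, 3 were lost with RLE factors, 0 with DESeq2, 14 without the filter on low counts, 5 with the replicate block, 9 without the second identifier series, 14 without WT placebo 2 and WT P4 2, and 46 when the compared groups were fitted alone. Leaving out single libraries lost 58 of the 126 at least once, most often WT placebo 3 (20 calls), and the other 68 were kept. The cause was not tested, beyond the fewer libraries in the last alternatives. Calls lost or gained in the alternatives are not all named beside the genes above.

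Counts of called genes that moved by over 1.5 times were as follows, with sterol first. With DESeq2, WT E2+P4 had 8 (5 in the main fit), WT E2+P4 against WT E2 4 (2), and the response differences D542G E2 4 (1), D542G P4 5 (3), Y541S E2 4 (2) and Y541S E2+P4 4 (2). Without the filter, Y541S E2+P4 had 3 (5), and the differences D542G E2 0 (1), D542G E2+P4 0 (1) and Y541S E2 1 (2). With the replicate block the D542G E2 difference had 2 (1). Without the second identifier series, Y541S E2 had 2 (1), Y541S E2+P4 3 (5), and the differences D542G E2 2 (1) and Y541S E2 1 (2). Without WT placebo 2 and WT P4 2, WT P4 had 1 (2), WT E2+P4 against WT E2 5 (2), and the differences D542G E2+P4 0 (1) and Y541S E2 4 (2). Fitted alone, WT E2 had 3 (7), WT P4 1 (2), D542G P4 2 (4), Y541S E2 0 (1), Y541S E2+P4 1 (5), WT E2+P4 against WT E2 0 (2), Y541S against WT placebo 4 (7), and the differences D542G E2 2 (1), D542G E2+P4 0 (1), Y541S E2 1 (2) and Y541S E2+P4 1 (2).

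For the fatty acid genes, Y541S E2+P4 (2 in the main fit) had 1 with RLE factors, 1 without the filter, 4 with the replicate block, 6 without the second identifier series, 1 without WT placebo 2 and WT P4 2, and 1 fitted alone. Y541S E2 (0) had 4 without the second identifier series. D542G against WT placebo (0) had 1 with DESeq2 and 1 fitted alone. Y541S against WT placebo (2) had 1 without the filter, 1 without WT placebo 2 and WT P4 2, and 0 fitted alone. Fitted alone, D542G E2 had 2 (4), D542G P4 2 (5) and WT E2+P4 against WT E2 2 (6). The Y541S E2 difference (1) had 2 with RLE factors and 2 with DESeq2, the Y541S P4 difference (1) had 0 with the replicate block, without the second identifier series, and without WT placebo 2 and WT P4 2, and the D542G E2+P4 difference (2) had 1 in the last.

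Leaving out single libraries, the sterol counts ran from 0 to 0 for D542G against WT placebo, from 0 to 1 for Y541S E2, the D542G E2 difference and the D542G E2+P4 difference, from 0 to 2 for WT P4, from 0 to 3 for WT E2+P4 against WT E2, from 0 to 5 for Y541S E2+P4, from 1 to 4 for the Y541S E2 difference, from 2 to 3 for the Y541S E2+P4 difference, from 2 to 4 for Y541S P4 and the D542G P4 difference, from 2 to 6 for D542G P4, from 3 to 5 for D542G E2+P4, from 3 to 6 for WT E2+P4, from 4 to 6 for the Y541S P4 difference, from 4 to 8 for WT E2, from 5 to 7 for D542G E2, from 6 to 7 for Y541S against WT placebo, from 7 to 8 for WT E2+P4 against WT P4. Leaving out single libraries, the fatty acid counts ran from 0 to 0 for WT P4, from 0 to 1 for D542G against WT placebo and the Y541S P4 difference, from 0 to 2 for Y541S against WT placebo, from 0 to 4 for Y541S E2, from 1 to 3 for the D542G E2+P4 difference and the Y541S E2 difference, from 1 to 4 for D542G E2 and Y541S P4, from 1 to 6 for Y541S E2+P4, from 2 to 2 for the D542G P4 difference and the Y541S E2+P4 difference, from 3 to 3 for the D542G E2 difference, from 3 to 5 for WT E2+P4 and D542G P4, from 3 to 6 for D542G E2+P4, WT E2+P4 against WT E2 and WT E2+P4 against WT P4, from 4 to 7 for WT E2.

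With all groups and genotypes pooled, the median correlation showed no pairing of libraries by replicate number. Pairing within a genotype, or of single numbers, was not tested. Of 178 pairs with the same number in different groups, 17 had a correlation of deviations over 0.1 (-0.504 to 0.56, median 0.001, against 0.002 for other numbers). At these depths the spread between libraries exceeded counting error over all genes. Idi1 and Fdps had the fewest counts of the members, 1607 and 1680 over all libraries, and their coefficients of variation within groups were 2.73% to 44.3% and 9.68% to 48.3%.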
